A study of Rattus norvegicus with 8 samples.

Results

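The glucose and fructose carriers examined in rat kidney were 7 genes, Slc5a1 and Slc5a2 of the sodium-coupled family and Slc2a1 to Slc2a5 of the facilitative family. They were taken as every probe set whose only gene symbol in the platform annotation is a member, which gave 9 of the 31042 probe sets tested and 7 of 14217 genes, with a pair each for Slc2a3 and Slc2a4. Kidneys came from female Sprague-Dawley rats aged 29 weeks. Si deplete rats had a daily intake of 0.17 mg Si per kg for 26 weeks, and Si replete rats of 4.1 mg Si per kg over the same time. Rats of both diets ate the same formulated low-Si feed and differed in their drinking water, which was low in Si for Si deplete rats and carried added orthosilicic acid for Si replete rats. RNA of the ground left kidney of a rat went to its own array, with 4 rats chosen per diet by a rule the labels leave out. The study searched these arrays for transporters whose expression changed with dietary Si.

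Filtered glucose is taken back almost entirely by the proximal tubule. Slc5a2 (SGLT2) carries the bulk of it across the apical membrane of the early segments together with sodium, and Slc5a1 (SGLT1) takes up the remainder in the late segment. Glucose then leaves the cell through facilitative carriers of the basolateral membrane, Slc2a2 (GLUT2) in the early segments and Slc2a1 (GLUT1) further along the nephron. Slc2a5 (GLUT5) is a fructose carrier of the apical membrane, whereas Slc2a4 (GLUT4), the insulin-responsive carrier, and Slc2a3 (GLUT3), a high-affinity carrier, are best known from muscle and fat and from neurons.

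The deposited values are log2 levels per probe set from gcRMA, in which probes that bind little RNA settle at low values, and 51.3% of all probe sets had a mean under 4. Array medians lay between 3.80 and 3.92. The first principal component of all probe sets held 42.1% of the variance, and the diets did not overlap on it. Si deplete replicate 1 stood at 64.0, the other Si deplete arrays at -1.9 to 19.2 and Si replete arrays at -25.9 to -18.8. The difference of each member without Si deplete replicate 1 is given beside its values. Levels are averages over every cell type of the kidney, so that fewer cells of a type and less RNA per cell cannot be told apart. The labels do not say which rats shared a cage or were killed on the same day. The limma p-values set the difference between diets against the spread among kidneys of the same diet, for these 8 kidneys.

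None of the 9 carrier probe sets differed between diets at an adjusted p under 0.1 (limma with Benjamini-Hochberg adjustment over all probe sets, adjusted p = 0.220 to 0.781), against 0.151% of all probe sets. Mean levels were higher in Si deplete kidneys for 4 probe sets (Slc5a2, Slc2a2, Slc2a1 and the brighter of Slc2a3) and lower for 5 (Slc5a1, Slc2a5, both of Slc2a4 and the dimmer of Slc2a3). The median log2 fold change of the 9 was -0.23, beside -0.01 for all probe sets. At an unadjusted p under 0.05 there were 3 of the 9, all of them dim probe sets of Slc2a4 and Slc2a3, where 14.9% of all probe sets had such a p. Groups did not overlap on 1 of the 9, against 9.37% of all probe sets. These counts are small, and the share over all probe sets is the level they have to be read against. Storey's q-value under 0.1 also gave 0 of the 9.

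**Figure D1:**
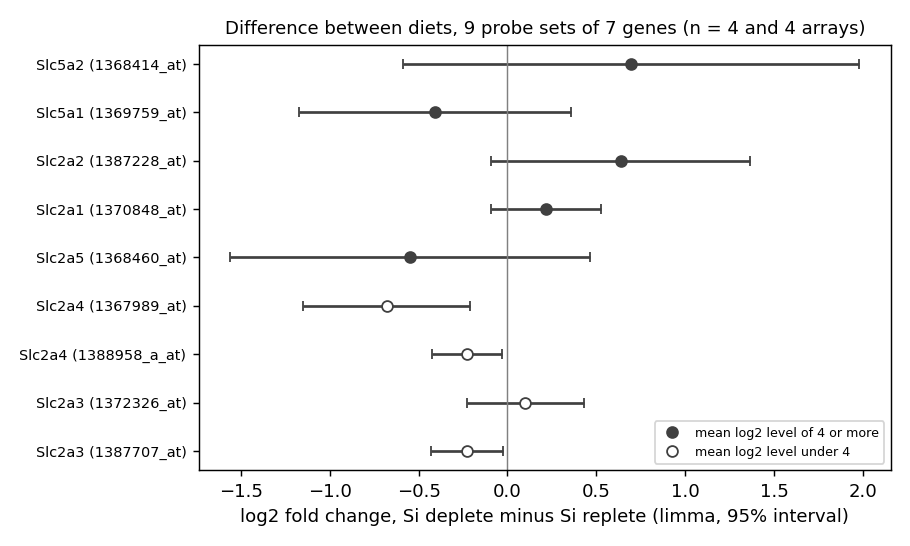
Difference in log2 level (x axis; Si deplete kidneys minus Si replete kidneys) with the 95% interval from limma for each of the 9 probe sets, from 4 and 4 arrays; open points mark probe sets with a mean log2 level under 4. Intervals of Slc5a2 (-0.59 to 1.98) and Slc2a5 (-1.56 to 0.46) are the widest, and only those of both Slc2a4 probe sets and the dimmer Slc2a3 probe set exclude 0.

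Slc5a2, the apical carrier of the early proximal tubule, had log2 levels of 8.84, 10.00, 9.31 and 8.42 in Si deplete kidneys, against 7.97, 8.78, 7.09 and 9.95 in Si replete kidneys. The groups overlapped broadly: Si replete replicate 4 was nearly as high as the highest Si deplete kidney while Si replete replicate 3 was the lowest of all. Means were 9.14 ± 0.68 in Si deplete kidneys and 8.45 ± 1.22 in Si replete kidneys (SD, n = 4 each). The log2 fold change was 0.70 with a standard error of 0.57 (limma adjusted p = 0.595), or 1.62-fold with a 95% interval of 0.666-fold to 3.94-fold. An exact 2-sided permutation test over the 70 arrangements of arrays gave p = 0.343. The size of the difference depended on single kidneys. It was 0.24 without Si replete replicate 3 and 1.20 without Si replete replicate 4, and 0.80 without Si deplete replicate 1. These data leave room for a difference in either direction.

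Slc5a1, which works in the late proximal tubule, was measured at 3.58, 4.85, 4.92 and 4.76 in Si deplete kidneys and at 4.76, 5.14, 5.54 and 4.31 in Si replete kidneys. Only Si deplete replicate 1 lay clearly below the rest. Means were 4.53 ± 0.63 and 4.94 ± 0.52 in Si deplete and Si replete kidneys (SD, n = 4 each), which gives a log2 fold change of -0.41 (standard error 0.34) with an adjusted p of 0.60 by limma. Without Si deplete replicate 1 the difference was -0.10. The exact permutation test gave p = 0.371.

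**Figure D2:**
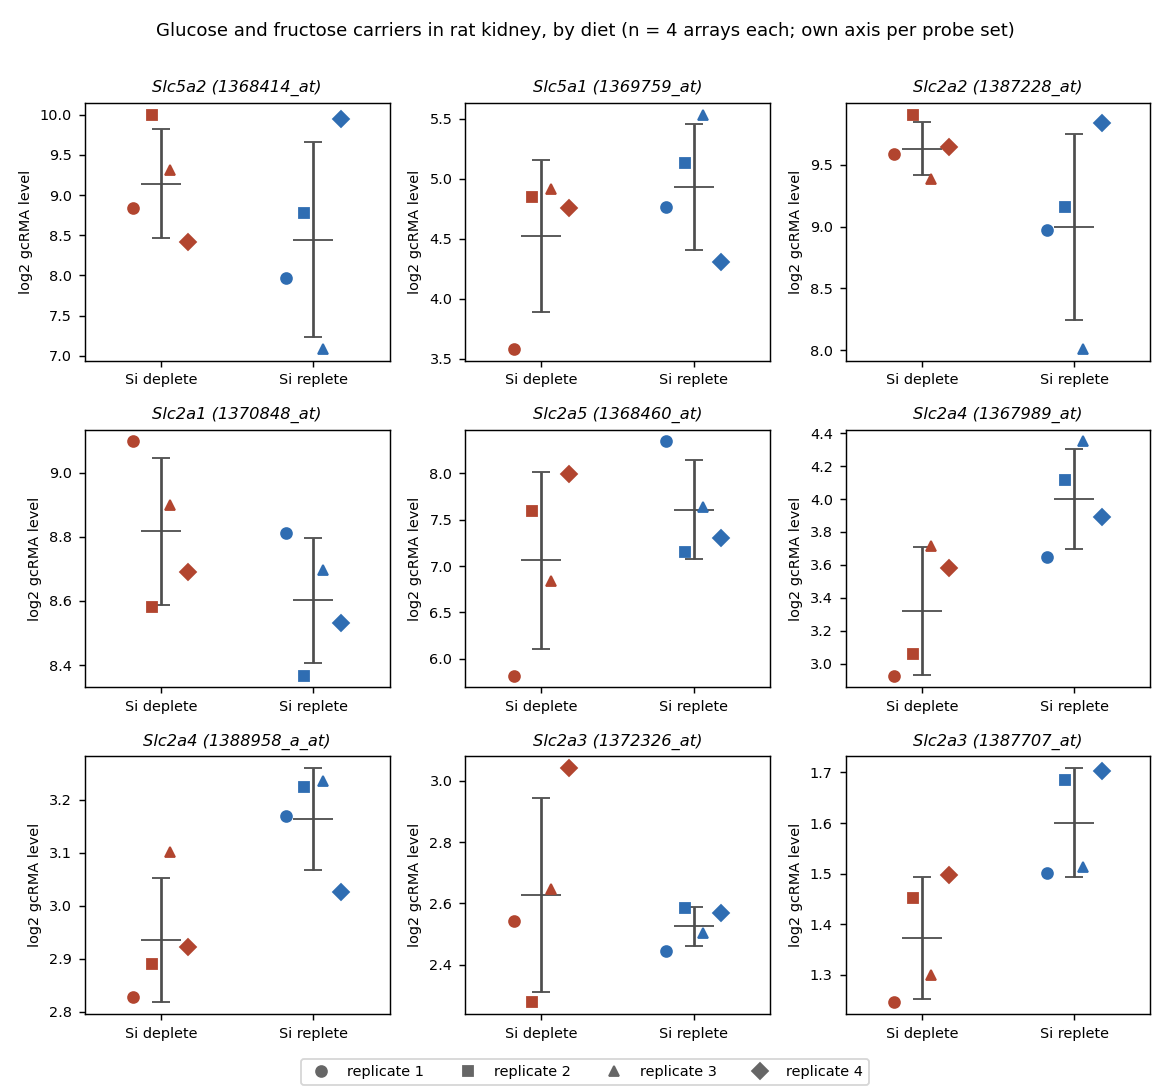
Log2 gcRMA level (y axis, its own scale in each panel) of the 9 probe sets in the Si deplete and Si replete kidneys; each point is an array, shaped by replicate number, and the horizontal and vertical lines give mean and SD (n = 4). Slc5a2 spans 7.09 to 9.95 among Si replete kidneys alone, and only the dimmer Slc2a3 probe set has groups that do not overlap.

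Of the exit carriers of the basolateral membrane, Slc2a2 had levels of 9.58, 9.90, 9.39 and 9.64 in Si deplete kidneys, against 8.97, 9.15, 8.01 and 9.83 in Si replete kidneys. Each Si deplete kidney lay above 3 of the Si replete kidneys and only Si replete replicate 4 reached their range. Means were 9.63 ± 0.21 in Si deplete kidneys and 8.99 ± 0.75 in Si replete kidneys (SD, n = 4 each). The log2 fold change was 0.64 (standard error 0.32, limma adjusted p = 0.391), or 1.55-fold with a 95% interval of 0.937-fold to 2.58-fold. By the exact permutation test p was 0.143. The difference was 0.31 without Si replete replicate 3 and was 0.92 without Si replete replicate 4, and 0.65 without Si deplete replicate 1.

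Slc2a1, the GLUT1 carrier, had a smaller within-diet SD, pooled over both diets, than the other 4 members with a mean of 4 or more. Within Si deplete kidneys alone, Slc2a2 varied slightly less (SD 0.21, against 0.23 for Slc2a1). Levels of Slc2a1 were 9.10, 8.58, 8.90 and 8.69 in Si deplete kidneys and 8.81, 8.37, 8.70 and 8.53 in Si replete kidneys. The groups overlapped, with 2 Si deplete kidneys above all Si replete kidneys. The log2 fold change was 0.22 (standard error 0.14, limma adjusted p = 0.489), and its 95% interval of -0.09 to 0.52 limits the difference to at most 1.44-fold. This is the narrowest interval among the 5 members with a mean log2 level of 4 or more. Without Si deplete replicate 1 the difference was 0.12.

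Slc2a5, the fructose carrier, was at 5.82, 7.59, 6.84 and 7.99 in Si deplete kidneys, against 8.34, 7.15, 7.63 and 7.30 in Si replete kidneys. Si deplete replicates 1 and 3 were below every Si replete kidney, while the other 2 were within the Si replete range. Means were 7.06 ± 0.96 and 7.61 ± 0.53 in Si deplete and Si replete kidneys (SD, n = 4 each), a log2 fold change of -0.55 (standard error 0.45, limma adjusted p = 0.596). It was -0.13 without Si deplete replicate 1 and -0.86 without Si deplete replicate 4. The exact permutation test gave p = 0.371.

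Enzymes that act on fructose and polyols once inside the cell were looked at beside Slc2a5. All 6 that were measured had lower mean levels in Si deplete kidneys, none passed the threshold, and their median log2 fold change was -0.37, or -0.15 without Si deplete replicate 1. Khk, ketohexokinase, which phosphorylates fructose, had 9.57, 10.61, 10.43 and 10.46 in Si deplete kidneys, against 10.86, 10.71, 10.76 and 10.75 in Si replete kidneys. Every Si deplete kidney was below every Si replete kidney, by a log2 fold change of -0.50 (standard error 0.20, limma adjusted p = 0.302). Differences for Dcxr, which reduces xylulose (-0.28), Sord, sorbitol dehydrogenase (-0.34), and Tkfc, which phosphorylates the triose made from fructose (-0.40), had groups that overlapped. Their adjusted p-values from limma were 0.443 to 0.486. The list's mean log2 level was 9.71 in Si deplete replicate 1 and 10.49 to 10.71 in the other Si deplete kidneys, against 10.67 to 10.85 in Si replete kidneys.

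Slc2a4, the insulin-responsive carrier, had the smallest unadjusted limma p-values of the 7 genes, on both of its probe sets. By the exact permutation test the dimmer Slc2a3 probe set had a smaller p (0.0286). On the brighter it was at 2.93, 3.06, 3.72 and 3.58 in Si deplete kidneys, against 3.65, 4.12, 4.35 and 3.89 in Si replete kidneys. On the dimmer, levels were 2.83, 2.89, 3.10 and 2.92 in Si deplete kidneys and 3.17, 3.22, 3.24 and 3.03 in Si replete kidneys. On each probe set 3 of the 4 Si deplete kidneys lay below all Si replete kidneys, and Si deplete replicate 3 lay inside their range. The log2 fold change was -0.68 (standard error 0.21, limma adjusted p = 0.220) on the brighter probe set and -0.23 (standard error 0.09, limma adjusted p = 0.283) on the dimmer. Exact permutation tests gave p = 0.0571 for each, above the smallest p of 0.0286 that 4 against 4 arrays allow. Both had a mean under 4, with 48.3% and 41.2% of all probe sets dimmer still. Without Si deplete replicate 1 the differences were -0.55 on the brighter and -0.19 on the dimmer, and without Si deplete replicate 3 they were -0.81 and -0.28.

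Genes of GLUT4 vesicle traffic and insulin signalling showed no call either, with 0 of 16 past the threshold and a median log2 fold change of 0.04. Mef2d, a transcription factor of the family that binds the Slc2a4 promoter in muscle, had 7.22, 7.04, 7.12 and 7.11 in Si deplete kidneys, against 6.84, 6.58, 6.92 and 6.66 in Si replete kidneys. Its groups did not overlap (log2 fold change 0.37, standard error 0.09, limma adjusted p = 0.176). Next by p were Sort1, a sorting receptor of the vesicles (0.22), Irs1, an insulin receptor substrate (-0.21), and Mef2a (-0.22), at limma adjusted p-values of 0.282 to 0.345. Irs1 was dim, with a mean under 4.

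Markers of fat and skeletal muscle, in which Slc2a4 is abundant, were looked at beside it. The mean log2 level of 7 adipocyte markers was 3.83 to 4.51 in Si deplete kidneys and 4.11 to 4.78 in Si replete kidneys, with 3 of 7 higher and 4 lower in mean. Of the 7, 3 had a mean under 4 (Lep, Plin1 and Cfd). Fabp4, a fatty acid binding protein that endothelium also makes, averaged 7.97 in Si deplete kidneys and 8.48 in Si replete kidneys. Cidec averaged 5.20 in Si deplete kidneys and 5.33 in Si replete kidneys, and Lipe 4.13 in Si deplete kidneys and 3.87 in Si replete kidneys. Lep was at 1.66 to 2.25 and Plin1 at 1.74 to 2.96 in Si deplete kidneys, against 1.92 to 2.27 and 2.04 to 2.67 in Si replete kidneys, while Adipoq was at 5.12 to 5.44 in Si deplete kidneys and 4.56 to 5.77 in Si replete kidneys. Of 7 skeletal muscle markers 6 had a mean under 4, and the exception was the probe set annotated to Myh1, at 11.20 to 11.90 in Si deplete kidneys and 11.44 to 11.99 in Si replete kidneys. With the other muscle markers this dim, that annotation is doubtful, and the Myh1 value is not read as a muscle level. The part of fat or muscle in the Slc2a4 difference was not tested.

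Slc2a3 was dim on both probe sets. On the dimmer, with levels of 1.25, 1.45, 1.30 and 1.498 in Si deplete kidneys and 1.502, 1.69, 1.51 and 1.70 in Si replete kidneys, the groups were apart by the third decimal. The log2 fold change was -0.23 (standard error 0.09, limma adjusted p = 0.297; exact permutation test, p = 0.0286), at a level that only 2.03% of all probe sets fall below. On the brighter, levels were 2.54, 2.28, 2.65 and 3.04 in Si deplete kidneys and 2.45, 2.59, 2.50 and 2.57 in Si replete kidneys, a log2 fold change of 0.10 (standard error 0.15, limma adjusted p = 0.781). Without Si deplete replicate 1 the differences were -0.18 on the dimmer and 0.13 on the brighter. The 2 probe sets differed in sign, and no direction is given for this gene. Macrophages and other myeloid cells also use Slc2a3, and their 9 markers had mean log2 levels of 5.89 to 6.48 in Si deplete kidneys, against 5.40 to 6.15 in Si replete kidneys. Their part was not tested.

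Kidneys of the same diet differed widely in several of these carriers. The within-diet SD of Slc5a2, pooled over both diets, was 0.985 on the log2 scale. It was larger than that of 99.5% of the 9489 genes with a mean of 4 or more, whose median SD was 0.177. Slc2a5 (0.774), Slc5a1 (0.581) and Slc2a2 (0.553) had larger SDs than 98.8%, 96.7% and 96.3% of these genes, whereas Slc2a1 (0.213) exceeded 62.4%. For Slc2a2 the spread was mainly that of Si replete kidneys (SD 0.75), against 0.21 in Si deplete kidneys. The intervals given above rest on the pooled within-diet spread, so the widest belong to the same carriers by construction.

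Slc5a2 and Slc2a2, which act in sequence in the same early segment cells, were high and low in the same Si replete kidneys. In Si deplete kidneys replicate 2 was the highest for both (Slc5a2 10.00, Slc2a2 9.90). The lowest kidney differed, with Slc5a2 lowest in replicate 4 (8.42) and Slc2a2 in replicate 3 (9.39). Their levels over the 8 arrays correlated at Pearson's r = 0.88 (exact permutation test, p = 0.00265, and p = 0.0557 adjusted over the 21 pairs of members) and Spearman's rho = 0.83 (exact permutation test, p = 0.0154, adjusted p = 0.323). Si replete replicates 1 and 3 were the 2 arrays farthest from the median of Slc2a2. Without them r was 0.61 over 6 arrays (exact permutation test, p = 0.211). Leaving out the most distant arrays narrows the range by choice, so this cannot decide whether the relation rests on those kidneys. Within diets r was 0.46 in Si deplete and 0.97 in Si replete kidneys, over 4 arrays each. No other pair of members had an adjusted p under 0.4 by Pearson's r.

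**Figure D3:**
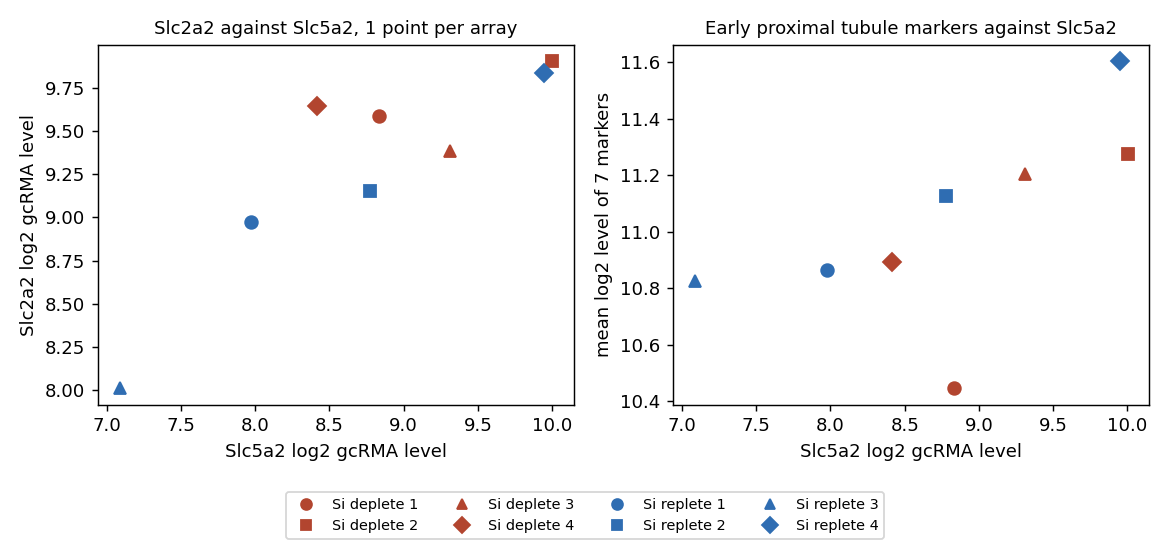
Log2 gcRMA level of Slc2a2 (left, y axis) and the mean log2 level of 7 markers of the early proximal tubule (right, y axis) against that of Slc5a2 (x axis), with 1 point per kidney, coloured by diet and shaped by replicate number. Si replete replicate 3 is lowest and Si replete replicate 4 near the top for both carriers, and Si deplete replicate 1 is low in the markers, at 10.45, but not in Slc5a2.

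Other genes of the early proximal tubule were looked at beside them. Slc5a12, a sodium-coupled lactate carrier of these segments, was at 7.70, 8.48, 8.23 and 8.03 in Si deplete kidneys, against 7.16, 8.26, 6.86 and 9.40 in Si replete kidneys. Si replete replicate 3 was its lowest kidney, as for Slc5a2, and Si replete replicate 4 its highest, where for Slc5a2 Si deplete replicate 2 was slightly higher. Slc4a4, the basolateral sodium bicarbonate cotransporter, was at 10.40, 11.06, 10.77 and 10.51 in Si deplete kidneys and at 10.15, 10.50, 10.05 and 11.36 in Si replete kidneys, with the same 2 kidneys lowest and highest. The mean log2 level of 7 early segment markers was 10.45, 11.28, 11.20 and 10.89 in Si deplete kidneys, against 10.87, 11.13, 10.82 and 11.60 in Si replete kidneys, and none of the 7 passed the threshold. Slc5a12 and Slc4a4 were the 2 of the 7 with a higher mean in Si deplete kidneys (log2 fold changes 0.19 and 0.17), and they were named after their values were seen. The other 5, Slc22a6 (-0.51), Slc22a8 (-0.43), Gatm (-0.18), Slc34a1 (-0.16) and Slc13a3 (-0.14), were lower in mean and each had its lowest level in Si deplete replicate 1. The median of the 7 was -0.16, or -0.01 without that kidney.

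Among Si replete kidneys the mean of 5 late segment markers was highest in Si replete replicate 3, at 10.60, and lowest in replicate 4, at 10.24, as Slc5a1 was at 5.54 and 4.31. In Si deplete kidneys the late segment mean was 9.83, 9.98, 10.27 and 10.30, where Slc5a1 was at 3.58, 4.85, 4.92 and 4.76. Both were lowest in replicate 1, but the late segment mean was highest in replicate 4 and Slc5a1 in replicate 3. Of the 5 late segment markers, Agt had a mean under 4. All 5 late segment genes had lower mean levels in Si deplete kidneys (median log2 fold change -0.33, none past the threshold). Slc1a1, a glutamate carrier, differed by -0.48 (standard error 0.17), and Slc7a13, an amino acid carrier, by -0.33 (standard error 0.12), at limma adjusted p-values of 0.263 and 0.268. How far the share of early and late tubule in each kidney sample sets the carriers' levels was not tested.

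Promoters are shown for Slc5a2 and Slc2a2, the pair of members with the highest Pearson's r over the arrays. They are given as RefSeq has them on build GRCr8, from 250 bases before to 50 bases after the start. Whether these sequences bear on the correlation was not tested. The Slc5a2 window is chr1:192277371-192277670 on the plus strand and that of Slc2a2 chr2:113540120-113540419 on the plus strand. Capitals mark matches to any of 6 motifs searched on both strands, GTTAAT (a half-site of the factor HNF1), AGGTCA (a half-site of nuclear receptors such as HNF4), CACGTG (the E-box), TATAAA (the TATA box), CCAAT (the CCAAT box) and GGGCGG (the GC box).
Slc5a2: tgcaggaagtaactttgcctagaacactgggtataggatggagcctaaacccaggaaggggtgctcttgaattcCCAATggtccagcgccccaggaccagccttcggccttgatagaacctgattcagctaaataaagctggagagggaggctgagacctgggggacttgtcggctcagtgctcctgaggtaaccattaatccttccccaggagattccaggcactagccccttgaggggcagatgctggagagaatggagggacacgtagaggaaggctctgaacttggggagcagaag
Slc2a2: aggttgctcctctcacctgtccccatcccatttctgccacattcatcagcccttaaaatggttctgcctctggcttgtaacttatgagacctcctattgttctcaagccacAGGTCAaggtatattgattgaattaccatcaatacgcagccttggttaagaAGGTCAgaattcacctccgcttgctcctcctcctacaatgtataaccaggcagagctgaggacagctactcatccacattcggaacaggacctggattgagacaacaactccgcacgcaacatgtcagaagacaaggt

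The Slc2a2 window holds AGGTCA 139 and 88 bases before the start, a motif found in 16.2% of 33469 promoters of this length, and the Slc5a2 window holds CCAAT 176 bases before the start, which is in 37.5% of them. No motif of the 6 is in both windows. The letters GTTAAT, in 7.45% of promoters, are in neither, which says only that this spelling is not in these windows. Promoters of 5 of the 7 members were found in the table. Among the others Slc5a1 holds CACGTG (6.42% of promoters) 200 bases before its start. Slc2a1 holds GGGCGG (33.1%) on the minus strand at 95, 60 and 35 bases before. The windows of Slc2a1 and Slc2a5 also hold CCAAT, as that of Slc5a2 does. In Slc2a5 it is on the minus strand 72 bases before the start, and in Slc2a1 it is 8 bases after the start. The Slc2a1 window holds TATAAA (14.2% of promoters) 24 bases after the start.

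In the wider pathway, 51 of the 73 symbols in 6 lists of related genes had a probe set with a single symbol. None of the 51 passed the threshold on its brightest probe set, against 0.204% of all 14217 genes. At an unadjusted p under 0.05, 3 were higher and 3 lower in Si deplete kidneys, that is 5.88% each, against 10.5% higher and 7.95% lower among all genes. Both shares lie below those of all genes, on a list of 51, and this was not tested. Groups did not overlap for Khk, Slc5a11, Hk1, G6pc3, Hif1a and Mef2d of the 51, nor for the dim Slc5a7 and Aspscr1. Over all probe sets 9.37% had groups that did not overlap, a share of probe sets rather than genes. This was not tested either.

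**Figure D4:**
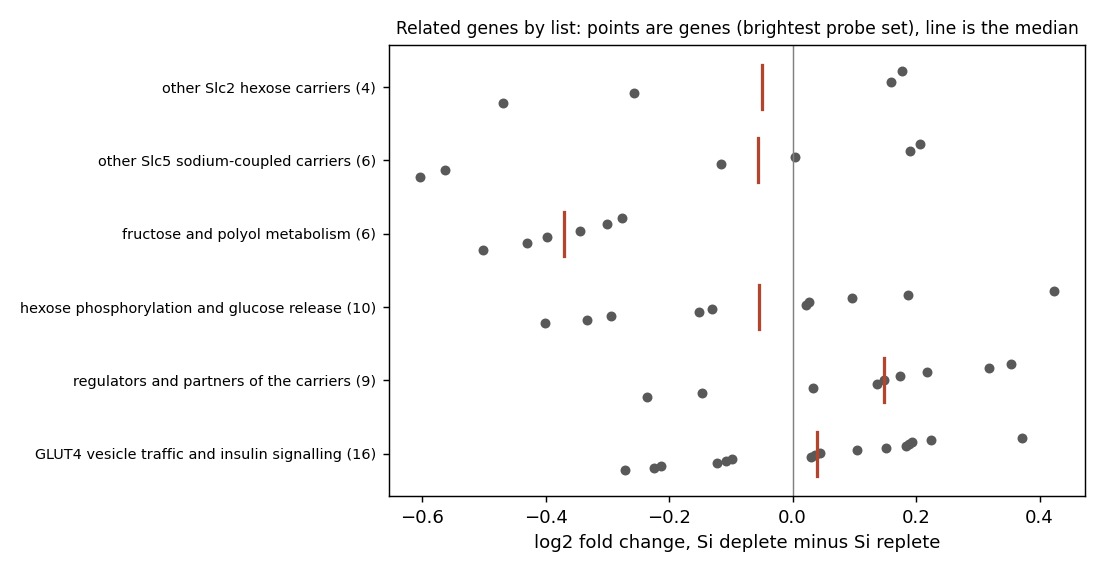
Difference in log2 level (x axis; Si deplete kidneys minus Si replete kidneys) of the genes in 6 lists of related genes, with the number measured in parentheses; each point is a gene on its brightest probe set and the line is the list's median. All 6 genes of fructose and polyol metabolism lie below 0, with a median of -0.37, and medians of the other lists lie between -0.06 and 0.15. Single genes of other lists lie as low, among them Slc5a11 at -0.60 and Pc at -0.40.

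Among other Slc2 carriers, 4 were measured and their median log2 fold change was -0.05. Slc2a13, which carries myo-inositol with protons, had 9.34, 9.74, 10.30 and 10.29 in Si deplete kidneys, against 10.72, 10.41, 10.25 and 10.17 in Si replete kidneys (log2 fold change -0.47, limma adjusted p = 0.362). Slc2a9, a urate carrier (-0.26), and Slc2a6 (0.18) were dim, and Slc2a8 differed by 0.16. Of 6 other Slc5 carriers, with a median of -0.06, Slc5a11, a myo-inositol carrier, was at 8.42, 9.54, 9.63 and 9.42 in Si deplete kidneys and at 9.92, 9.78, 9.94 and 9.79 in Si replete kidneys. Its groups did not overlap (log2 fold change -0.60, limma adjusted p = 0.291). Slc5a6, the multivitamin carrier, differed by -0.56 (limma adjusted p = 0.249), and the dim Slc5a7 and Slc5a5 by 0.21 and -0.12.

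Of 10 genes that phosphorylate hexoses or release glucose, 5 were higher and 5 lower in mean. Hk1, hexokinase 1, was at 9.63, 9.35, 9.45 and 9.48 in Si deplete kidneys, against 9.14, 8.92, 9.26 and 8.91 in Si replete kidneys, with no overlap (log2 fold change 0.42, standard error 0.11, limma adjusted p = 0.173). G6pc3, a glucose-6-phosphatase of many tissues, differed by 0.19, Fbp1, fructose bisphosphatase, by -0.29, and the dim Hkdc1 by -0.15, at limma adjusted p-values of 0.351 to 0.423. Pck1, which makes phosphoenolpyruvate for gluconeogenesis, differed by 0.02, Pc by -0.40 and Slc37a4 by -0.33, with groups that overlapped.

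Partners and regulators of the carriers had a median log2 fold change of 0.15 over 9 genes. Pdzk1ip1 (MAP17), a membrane protein that SGLT2 needs for activity, was at 11.85, 11.65, 11.31 and 11.50 in Si deplete kidneys and at 11.32, 11.46, 11.18 and 11.47 in Si replete kidneys (log2 fold change 0.22, limma adjusted p = 0.440). Hif1a, the oxygen-regulated factor that acts on Slc2a1, differed by 0.17, with no overlap between groups (limma adjusted p = 0.361). Mlxip, a glucose-sensing factor, differed by 0.32 and the scaffold protein Pdzk1 by -0.24, with groups that overlapped.

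Genes whose levels followed a carrier most closely were taken as the 3 with the highest Pearson's r over the 8 arrays among 9488 other genes with a mean of 4 or more, so high values are built into the choice. For Slc5a2 these were Gpx1 (r = 0.96), Osbpl11 (0.95) and Fcgrt (0.94), and for Slc2a2 Bhlhe40 (0.98), the macrophage receptor gene Csf1r (0.97) and Itga1 (0.97). Slc5a1 was followed by Itm2b (0.97), Fjx1 (0.96) and Rock2 (0.96), Slc2a5 by Ahctf1 (0.95), Tm9sf1 (0.95) and C1qtnf7 (0.94), and Slc2a1 by Cnot10 (0.97), Tns4 (0.97) and Dtx2 (0.96). The most opposed genes were Sumf1 for Slc5a2 (-0.95), Rbm39 for Slc2a2 (-0.95), Chmp3 for Slc5a1 (-0.95), Rrp1 for Slc2a5 (-0.95) and Ftx for Slc2a1 (-0.97). These 20 genes had limma adjusted p-values of 0.282 to 0.866.

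Tubule injury markers differed between the same kidneys. The mean log2 level of 6 of them was 10.36 to 11.90 in Si deplete kidneys, highest in replicate 1, and 9.08 to 10.19 in Si replete kidneys, although none passed the threshold. Havcr1, kidney injury molecule 1, was at 12.69 in Si deplete replicate 1 and at 10.69 to 12.10 in the other Si deplete kidneys. In Si replete kidneys it was at 6.57 to 9.61, with no overlap (log2 fold change 3.66, limma adjusted p = 0.134). Si deplete replicate 1 had the lowest Slc5a1, Slc2a5 and Slc2a4 levels, but the highest Slc2a1 level (9.10). Si replete replicate 1, with the highest Havcr1 of its diet (9.61), had the highest Slc2a5 level of all kidneys (8.34). The part of injury in the carriers' levels was not tested.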

How the data were processed

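The authors hybridized kidney RNA to Affymetrix GeneChip Rat Genome arrays and deposited log2 levels per probe set, computed with gcRMA and a summarization based on m-estimators (GCRMA 2.36.0 in the submitters' processing notes). Probe intensities were not analysed here. Of 31099 probe sets 57 controls were left out. The groups were fitted with R 4.3.3 and limma 3.58.1 (lmFit, eBayes); differences are Si deplete minus Si replete. P-values were adjusted by Benjamini-Hochberg across all 31042 probe sets and read at 0.1, the methods' false discovery rate. No level filter was applied, and a gene in a list is its brightest probe set. All 9 carrier probe sets matched RefSeq genes by Entrez ID. Members and lists were chosen with earlier results of these data known. Named genes are all members, up to 4 of each list by smallest p, and the genes most like a member. Others were named after their values were seen, among them Slc4a4, Slc5a12, Pck1, Pc, Slc37a4 and the markers of other cells. The fit was tested on simulated data. Arrays limit the precision by their number.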

Additional observations from a re-analysis of the deposited data

Results flagged for a closer look

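Si deplete replicate 1 stood apart from the other Si deplete kidneys in Slc5a1, at a log2 level of 3.58, with a gap to the nearest kidney of 0.879 of the group's range. Si replete replicate 1 stood apart in the mean of the adipocyte markers (4.78, gap of 0.901), and Si replete replicate 4 in that of the markers of the loop, distal tubule and collecting duct (11.02, gap of 0.838). These are 3 of 40 groups of 4 arrays examined, and chance marks about 1 in 20.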

How the results depend on the processing

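Of 131 values of the carrier probe sets over 15 alternative settings, 130 kept their direction and stayed short of the threshold. The exception was the brighter probe set of Slc2a3, which was -0.037 without Si deplete replicate 4 (-0.037 to 0.22 with single arrays left out). Leaving out dim probe sets (mean under 4) removed both probe sets of Slc2a3 and of Slc2a4. No carrier probe set and no related gene passed under any setting run for it (limma; 0 to 0 with single arrays left out), while calls over all probe sets spanned 0 to 235 (higher) and 0 to 67 (lower), the most being found when Si deplete replicate 3 was left out. These calls were 35 higher and 12 lower as fitted, 90 and 14 with the replicate block, 58 and 19 without dim probe sets, 33 and 19 with array medians subtracted, 0 and 0 at an adjusted p under 0.05 (4638 at an unadjusted p under 0.05) and 121 and 51 by Storey's q-value. The adjusted p of the brighter Slc2a4 probe set ranged from 0.139 to 0.430 and was 0.148 with the replicate block. The paper states that a rat of each group was killed on the same day, but the labels do not tie replicate numbers to those days. Deviations of arrays that share a replicate number correlated at 0.088, 0.090, 0.079 and -0.088. For 4 of the 8 arrays the best match in the other diet had the same number. The numbers were not taken to pair kidneys, and a pairing by day remains possible. All settings were planned.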

Other observations

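Markers of other cells were described on the same arrays, and none passed the threshold. Of 8 markers of the whole proximal tubule, 2 were higher and 6 lower in mean in Si deplete kidneys (median log2 fold change -0.12), and all 8 of the loop, distal tubule and collecting duct were lower (-0.14). Calb1, the calcium-binding protein of the distal tubule, differed by -0.27 (limma adjusted p = 0.226). Endothelial markers had a median of 0.04, and those of smooth muscle and mural cells one of 0.22. Markers of red blood cells were lower in mean, 3 of 3, with a median of -0.42. Of 9 myeloid markers 8 were higher (median 0.54), with the smallest p for the integrin Itgb2, at 1.09 (limma adjusted p = 0.126). Skeletal muscle markers had a median of 0.00 and adipocyte markers one of -0.10.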
